A study of Mus musculus with 18 samples.

Results

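The mitochondrial ribosomal protein genes are the nuclear genes for the protein components of the ribosome inside mitochondria, and are named Mrpl for the large subunit and Mrps for the small one. Members were all genes whose symbol begins with Mrpl or Mrps followed by a digit, other than those named as pseudogenes, with a mean of at least 10 counts over 18 libraries. This gave 75 members, 46 Mrpl and 29 Mrps, of 37991 genes in the count files. Of 80 such symbols, 4 were pseudogenes with mean counts of 7.5 or less, and 1 gene, Mrpl53, lay below the minimum at 0.0556. The members just above it were Mrps36 at 40.2, Mrpl34 at 46.4 and Mrpl14 at 49.2 counts. All 75 members also passed the filter for testing, which 17240 genes passed, and they lay on 17 chromosomes.

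The mitochondrial ribosome translates only the few mRNAs encoded by the mitochondrial genome, which are core subunits of the respiratory chain and ATP synthase. Its RNAs come from the mitochondrial genome, whereas its proteins are made in the cytosol and imported, so assembly needs products of both genomes. Many of the proteins descend from bacterial ribosomal proteins and others are found only in mitochondrial ribosomes. T cells that leave quiescence after stimulation are known for building up mitochondrial mass and translation.

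The libraries were RNA-seq of splenic CD4+ T cells from Tg4-H2u mice, which carry a transgenic T cell receptor for a peptide of myelin basic protein. The mice were male and female and 6 to 12 weeks old. Every group had 3 libraries, described as biological replicates. Naive mice had received PBS only. Tolerized mice had received 7 subcutaneous doses of the high-affinity 4Y peptide, 1 every 3 to 4 days, which rose to a maximum that was then kept. N0 and T0 were naive and tolerized cells taken 2 h after a last injection of PBS. NAg and TAg were naive and tolerized cells taken 2 h after 80 µg of peptide given to the mouse. NPI and TPI were naive and tolerized cells kept for 2 h in culture with 20 ng/ml PMA and 2 µM of the calcium ionophore A23187, which together (PI) bypass the receptor. The comparisons therefore ask how each stimulus changes expression in naive and in tolerized cells, and whether the cell states differ. All mice carry the same receptor transgene, and the PI groups differ from the others in having been cultured as well as in the stimulus.

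Promoters were read from RefSeq windows on GRCm38.p6 that run from 250 bases before to 50 bases after each gene's start, and 66 of the 75 members had an entry. The promoters of 4 members with different responses are shown: Mrpl12 rose most after antigen among members that share no same-strand exon with another gene, Mrpl17 rose after both stimuli, Mrpl9 rose less in tolerized cells, and Mrpl34 fell. On mm9 these genes span chr11:120345927-120350379 (plus strand), chr7:112955172-112959613 (minus), chr3:94247240-94255052 (plus) and chr8:73988825-73989651 (plus). The upstream 250 bases are given 5′ to 3′ on the gene's strand, and capitals mark matches to the motifs NRF1 (GCGCA and GCGC with any 1 base between), ETS (CCGGAAG), YY1 (AAGATGG), E-box (CACGTG) and SP1 (GGGCGG) on either strand.
Mrpl12, chr11:120484387-120484636, plus strand: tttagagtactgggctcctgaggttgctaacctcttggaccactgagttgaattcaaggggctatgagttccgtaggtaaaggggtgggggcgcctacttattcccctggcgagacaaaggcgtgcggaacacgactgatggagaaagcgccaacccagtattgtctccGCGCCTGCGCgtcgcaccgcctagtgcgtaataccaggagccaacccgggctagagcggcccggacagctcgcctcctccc
Mrpl17, chr7:105811088-105811337, minus strand: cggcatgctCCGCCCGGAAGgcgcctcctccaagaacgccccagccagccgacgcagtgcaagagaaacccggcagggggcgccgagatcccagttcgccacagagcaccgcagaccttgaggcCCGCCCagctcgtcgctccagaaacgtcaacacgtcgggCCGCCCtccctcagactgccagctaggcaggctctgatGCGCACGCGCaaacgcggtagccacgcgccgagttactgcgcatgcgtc
Mrpl9, chr3:94443086-94443335, plus strand: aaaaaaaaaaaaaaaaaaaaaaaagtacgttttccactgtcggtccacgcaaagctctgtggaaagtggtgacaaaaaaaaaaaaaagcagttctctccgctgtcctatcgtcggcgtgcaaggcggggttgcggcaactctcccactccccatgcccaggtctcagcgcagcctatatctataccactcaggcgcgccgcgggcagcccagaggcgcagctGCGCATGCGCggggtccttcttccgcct
Mrpl34, chr8:71464676-71464925, plus strand: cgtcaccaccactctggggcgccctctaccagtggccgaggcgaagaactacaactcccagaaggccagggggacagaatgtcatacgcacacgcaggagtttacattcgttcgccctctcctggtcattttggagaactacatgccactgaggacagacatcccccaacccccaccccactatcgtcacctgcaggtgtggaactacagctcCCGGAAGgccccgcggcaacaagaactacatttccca
The Mrpl12, Mrpl17 and Mrpl9 promoters each hold 1 NRF1 match, Mrpl17 also holds 1 ETS match and 3 SP1 matches, of which 1 overlaps the ETS match, and Mrpl34 holds 1 ETS match. NRF1 is a transcription factor known for binding promoters of nuclear genes for mitochondrial proteins. Over the whole window, 12 of 66 members (18.2%) held the NRF1 motif, against 4.78% of 27025 genes with a promoter entry and 9.67% of the 10163 tested genes among them. The ETS motif stood in 22 members (33.3%), against 9.12% of all and 16.8% of tested genes, and YY1 in 13 (19.7%), against 6.48% and 7.1%. The E-box was found in 5 members (7.58%), against 7.24% and 9.93%, and SP1 in 33 (50%), against 35.9% and 61.4%. A match is only a run of letters in the window and shows neither binding nor control.

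Library totals ran from 10758571 to 24119489 counts, and the 75 members together took 12002 to 28044 of them. The 6 T cell markers checked, Cd3d, Cd3e, Cd3g, Cd4, Cd28 and Lck, were detected in every library, and their summed level averaged 934 CPM (counts scaled to a common library size) in NAg and 1314 in TAg against 2009 in N0, 1758 in T0, 3495 in NPI and 3528 in TPI. Cd28 alone stood at 26002 and 26034 normalized counts in NPI and TPI, against 4260 in N0 and 4032 in T0. Cd3e and Lck were higher, and Cd3d, Cd3g and Cd4 lower, in each PI group than in its unstimulated group. The 8 neutrophil genes checked summed to means of 185 CPM in T0, 187 in TAg and 41.8 in TPI, and to between 7.78 and 16.3 in the naive groups. Mpo, which is among them, stood at 384 normalized counts in T0, 337 in TAg and 388 in TPI. The 6 cell-cycle genes checked summed to 142, 140 and 89.3 CPM in T0, TAg and TPI and to between 51.9 and 60.7 in the naive groups. Erythroid genes summed to a mean of 69.1 CPM in T0, where replicate 1 held 169, against 9.11 in N0, and the CD8 genes to 7.73 against 17.0. Y-linked reads numbered 5111 or more in all NPI and TPI libraries, in T0 replicates 1 and 2 and in TAg replicate 3, and 18 or fewer, with abundant Xist, in the rest. The libraries of N0 and NAg were thus all of 1 sex and those of NPI and TPI of the other. In such bulk samples fewer cells of a type and less RNA per cell cannot be told apart.

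The summed level of the members rose after antigen and fell after PI. Summed over the 75 members, and from the lowest to the highest library, N0 held 1188, 1213 and 1219 CPM, and NAg held 2126, 2258 and 2277. The 3 NPI libraries held 999.6, 1028 and 1032 CPM. In tolerized cells the sums were 1040, 1074 and 1156 CPM in T0, 1978, 2013 and 2043 in TAg, and 964, 975 and 1009 in TPI. Both antigen groups lay above every other library and did not overlap them. NPI lay below N0 and TPI below T0, again without overlap. Scaled by library totals alone, the mean sums were 1483 CPM in N0, 2063 in NAg and 840.1 in NPI, and 1443 in T0, 2118 in TAg and 748 in TPI, so which of the changes was larger depends on the scaling and the directions do not. The part made up of Mrpl genes went from 754 ± 6.68 (SD, n = 3) CPM in N0 to 1373 ± 53.7 in NAg and 682 ± 12.8 in NPI, and the Mrps part from 452 ± 10.8 to 847 ± 30.8 and 338 ± 5.17.

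**Figure D1:**
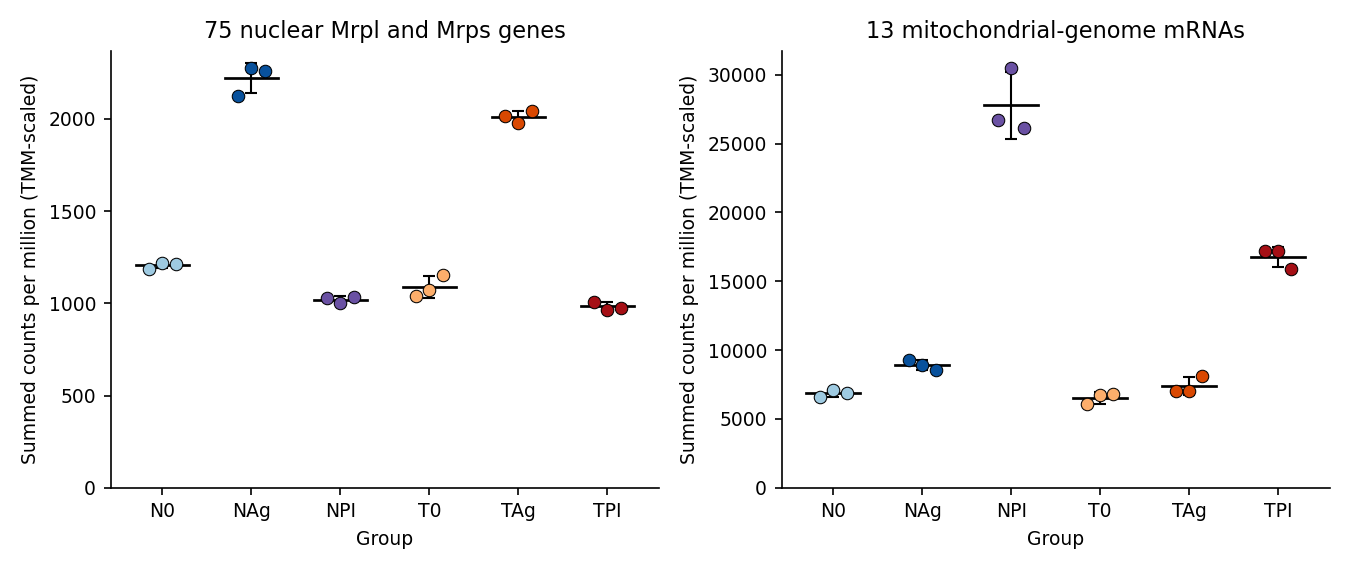
Summed CPM in each library, scaled by trimmed mean of M values, for the 75 nuclear members (left) and the 13 mitochondrial-genome mRNAs (right), in the 6 groups. Points are libraries, lines are means and bars are SD (n = 3). On the left the NAg and TAg libraries lie at 1978 to 2277 CPM and all others at 964 to 1219, and on the right the 2 PI groups are the highest, at 15899 to 30517.

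Per kilobase of exon, mean levels over all libraries spanned 14.8-fold among the members. Mrpl52, a protein found only in mitochondrial ribosomes, was highest at 35.0 CPM per kilobase, followed by Mrpl24, near the polypeptide exit, at 28.2 and Mrpl12, of the stalk that recruits translation factors, at 22.9. The lowest were Mrpl47 at 3.22, Mrpl48 at 2.56 and Mrps36 at 2.36 CPM per kilobase. The length used is that of all annotated exons of a gene merged. It was 412 bases for Mrpl52, 3420 for Mrpl47, 6139 for Mrpl48 and 1274 for Mrps36. The part of annotated length in this order was not tested. Mrps36 keeps its ribosomal name but is now known as a component of the 2-oxoglutarate dehydrogenase complex. The median level per kilobase was 6.69 CPM in N0, 11.3 in NAg, 4.92 in NPI, 6.07 in T0, 11.7 in TAg and 4.30 in TPI. Of the 75 members, 35 had their highest group mean in NAg and 26 in TAg, and 37 had their lowest in TPI and 16 in NPI. Exonic bases were shared with another gene by 25 members, and counts of these are less certain because the sources used here do not give the counting mode or its strand setting.

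In naive cells, antigen raised most of the members. With edgeR's quasi-likelihood test over 17240 genes (adjusted p under 0.05, Benjamini-Hochberg), 51 of 75 members rose, where 32.1% of all tested genes did, and 9 fell, where 33.4% did. The median log2 fold change was 0.68 over the members and 0 over all tested genes. Called changes of at least 2-fold, with a group mean above 50 normalized counts, numbered 26 upward (14.2% of all genes) and 2 downward (16.2%). Replicates of NAg lay wholly above those of N0 for 51 members (33.5% of all genes) and wholly below for 8 (34.6%). The rise took in both subunits, with 31 of 46 Mrpl and 20 of 29 Mrps genes higher and medians of 0.75 and 0.63. It also took in proteins with bacterial relatives, 33 of 46 with a median of 0.75, and proteins specific to mitochondria, 17 of 28 with a median of 0.52. Of the 50 members that share no exonic base with another gene, 34 rose and 2 fell. All N0 and NAg libraries had 15 or fewer Y-linked reads, so this comparison was made within 1 sex. The T cell markers were lower in NAg than in N0, at 934 against 2009 CPM, and their part in these values was not tested. When libraries were scaled by their totals alone, the median of all tested genes moved to -0.42 and that of the members to 0.28, and 39 members rose and 16 fell. Of all tested genes, 22.8% rose and 43.1% fell with that scaling.

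Mrpl12, the stalk protein, rose most steeply among the members without a same-strand neighbour. Its normalized counts were 207, 221 and 241 in N0 and 1013, 1160 and 1091 in NAg. No replicate overlapped, and the log2 fold change was 2.28 ± 0.10 (SE; edgeR adjusted p = 7.37e-16). Mrpl17, the relative of a bacterial protein of the large subunit, had 160, 175 and 249 normalized counts in N0 and 835, 861 and 893 in NAg, a log2 fold change of 2.15 ± 0.11 (edgeR adjusted p = 1.54e-14). Its N0 replicate 3 stood above the other two but far below NAg. Mrpl3, a core protein of the large subunit, went from 367, 388 and 372 to 1480, 1547 and 1631 normalized counts, a 4.13-fold rise. Mrpl16, which lies beside the tRNA sites, went from 117, 112 and 109 to 453, 471 and 443, a 4.05-fold rise. For both genes the spread within a group was a small part of the distance between groups. In the small subunit, Mrps2 went from 210, 203 and 221 to 759, 843 and 839 normalized counts, with a log2 fold change of 1.95 ± 0.09.

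Mrps6 had the largest fitted rise of all members, but its counts are not certain. Its normalized counts were 93.1, 92.9 and 101 in N0 and 689, 787 and 801 in NAg, a log2 fold change of 2.99 ± 0.13. The gene shares 696 exonic bases on the same strand with Slc5a3, an inositol transporter gene whose own log2 fold change was 2.73. The part of Slc5a3 reads in the Mrps6 value was not tested.

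A minority of the members moved the other way. Mrpl34, a very small protein of the large subunit, had 86.2, 74.1 and 101 normalized counts in N0 and 15.6, 24.7 and 16.5 in NAg. The groups did not overlap, and it fell by 2.20 ± 0.27 on the log2 scale (edgeR adjusted p = 1.15e-07). Mrpl14, which binds an assembly factor on the subunit interface, had 81.2, 65.8 and 82.3 normalized counts in N0 and 22.8, 24.7 and 28.6 in NAg, and it fell by 1.59 on the log2 scale. It shares 106 exonic bases with Tmem63b on the other strand, which fell by 1.11, and the part of those reads was not tested. Smaller falls, also without overlap, were measured for Mrps16 (-0.71), Mrpl48 (-0.41) and Mrpl49 (-0.37). The Mrpl49 call was lost without N0 replicate 2, NAg replicate 1 or NAg replicate 2 and in DESeq2, where its log2 fold change was -0.32.

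**Figure D2:**
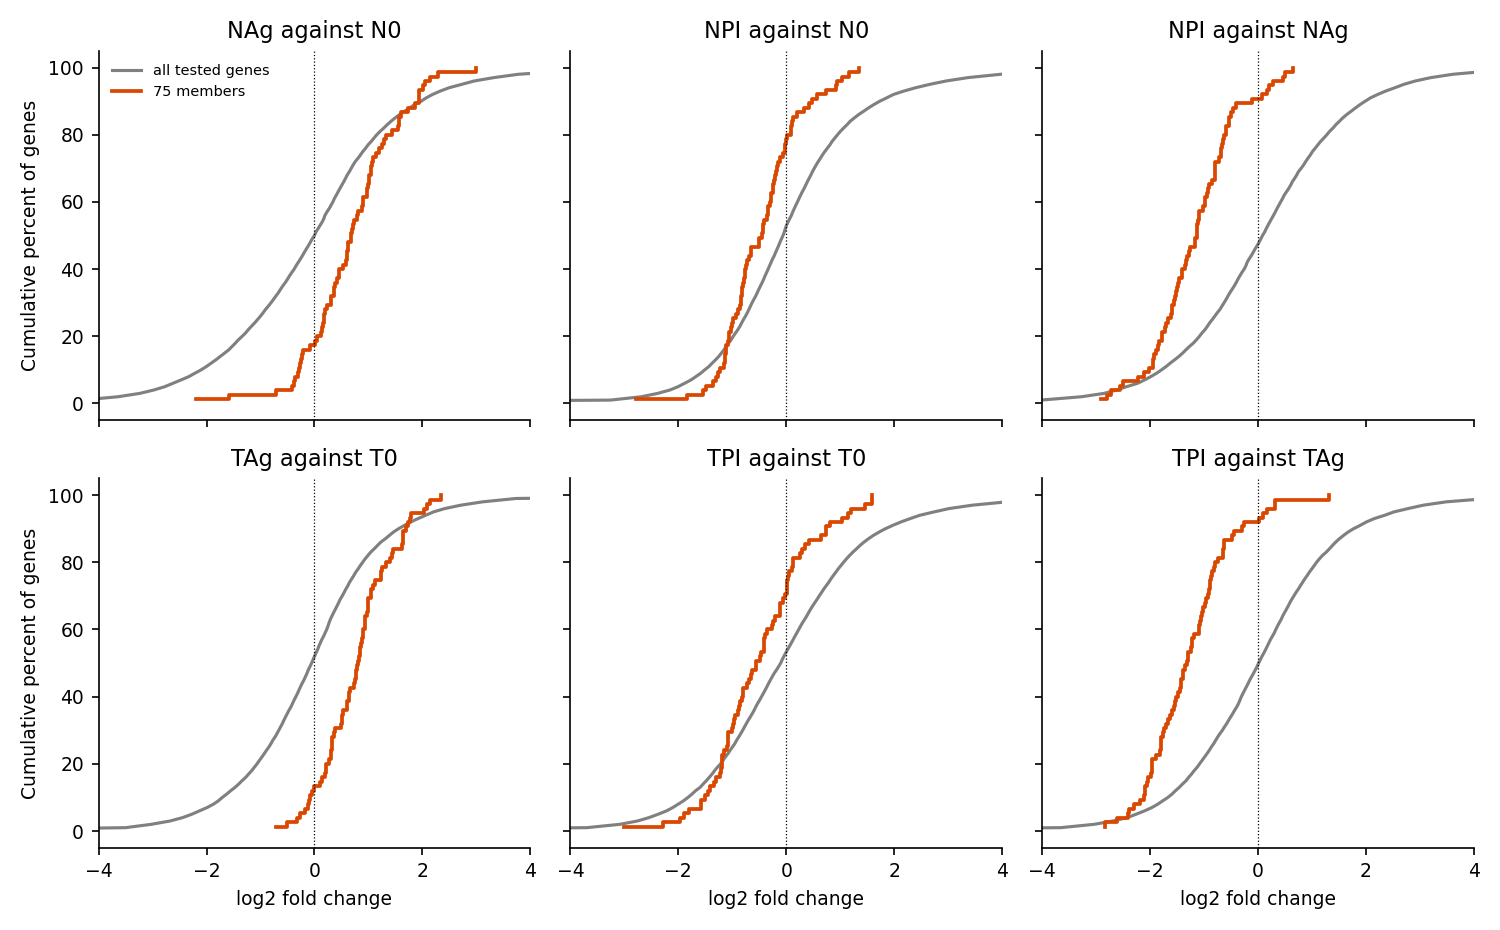
Cumulative percent of genes (vertical axis) against log2 fold change (horizontal axis) for the 75 members (orange) and all 17240 tested genes (grey) in 6 comparisons. Around the median, the member curve lies to the right of the other after antigen, with medians of 0.68 and 0.81, to the left after PI, with medians of -0.44 and -0.55, and farthest to the left in the direct comparison of PI with antigen, with medians of -1.13 and -1.31.

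Antigen also raised most of the members in tolerized cells. Here 56 members rose, where 29.9% of all tested genes did, and 2 fell, where 29.8% did. The median was 0.81 over the members and -0.05 over all genes. At the 2-fold limit 23 members were higher (12.1% of all genes), and 11.3% of genes were lower. TAg replicates lay wholly above T0 for 59 members (31.7% of genes) and wholly below for 2 (32.8%). The rise was again found in both subunits, with 33 of 46 Mrpl genes and 23 of 29 Mrps genes and medians of 0.82 and 0.78. T0 and TAg were each of mixed sex, with abundant Y-linked reads in T0 replicates 1 and 2 and TAg replicate 3. The T cell markers were lower in TAg than in T0, at 1314 against 1758 CPM, and their part was not tested. With library totals alone as scaling, the medians moved to 0.48 for members and -0.40 for all genes, and 46 members rose and 9 fell. Of all tested genes, 21.8% rose and 40.8% fell with that scaling.

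Mrpl12 had 183, 193 and 236 normalized counts in T0 and 832, 881 and 968 in TAg, a log2 fold change of 2.13 ± 0.10. Mrps18b, one of 3 mammalian relatives of a single bacterial small-subunit protein, had 160, 185 and 191 in T0 and 767, 773 and 723 in TAg, a log2 fold change of 2.08 ± 0.09. Mrpl17 went from 149, 159 and 176 to 658, 638 and 688, a 4.11-fold rise. None of these 3 genes had overlapping replicates. Mrps2 rose by 1.78 and Mrps6, with the uncertainty above, by 2.35 on the log2 scale. The 2 members that fell were Mrpl34, with 93.8, 64.5 and 114 normalized counts in T0 and 55.0, 46.5 and 64.5 in TAg, and Mrpl33, with 678, 687 and 683 in T0 and 476, 511 and 462 in TAg. The highest TAg library of Mrpl34 reached the lowest of T0, whereas those of Mrpl33, a small protein of the large subunit, did not overlap (log2 fold change -0.50 ± 0.08). Mrpl33 shares 147 exonic bases on its own strand with Bre.

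Across the 75 members, the antigen response in naive cells and that in tolerized cells had a Pearson r of 0.94 and a Spearman rho of 0.94. These 2 responses share no library, but they share the members, the preparation and the scaling, so the value is a description. Of the 51 members that rose in naive cells, 49 also rose in tolerized cells, and the 56 that rose in tolerized cells hold the same 49. The 2 without a second call were Mrpl39, at 0.39 and 0.21, and Mrps36, at 0.59 and 0.37. Both members that fell in tolerized cells had fallen in naive cells, and 1 of them was called without TAg replicate 2.

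PI, given in culture, lowered most members in naive cells. Here 10 members rose, where 28.6% of all tested genes did, and 47 fell, where 32.7% did. The median was -0.44 over members and -0.06 over all genes. Replicates of NPI lay wholly below N0 for 46 members (35.3% of genes) and wholly above for 12 (31.2%). Past the 2-fold limit were 17 members downward (10.3% of genes) and 3 upward (10.1%). Among Mrps genes 22 of 29 fell, with a median of -0.72, and among Mrpl genes 25 of 46 fell, with a median of -0.32. N0 and NPI differ in sex and in culture as well as in PI, and in this comparison alone these cannot be told apart. The summed T cell markers were also higher in NPI than in N0, at 3495 against 2009 CPM, and their part was not tested. Within that sum Cd28 went from 4260 normalized counts in N0 to 26002 in NPI, and Cd3e and Lck were also higher. Cd3d, Cd3g and Cd4 were lower in NPI than in N0. With sex as a covariate, which rests on the mixed T0 and TAg groups, 38 members fell and 10 rose. Scaling by library totals alone gave 65 members lower and 5 higher, with medians of -1.02 for members and -0.65 for all genes. Of all tested genes, 52.8% were lower and 15.6% higher with that scaling.

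The falls reached several fold. Mrpl34 had 86.2, 74.1 and 101 normalized counts in N0 and 10.4, 16.5 and 11.0 in NPI, and it fell by 2.79 ± 0.28 on the log2 scale. Mrps33, a small-subunit protein specific to mitochondria, had 70.3, 75.2 and 80.3 in N0 and 20.8, 17.6 and 23.8 in NPI, a fall of 1.84 ± 0.20. Mrpl47, of the polypeptide exit side, went from 127, 104 and 117 to 46.8, 46.2 and 42.4 normalized counts. In all 3 genes the highest NPI library was below the lowest N0 library. Mrpl49 and Mrps14 fell by 1.54 and 1.48 on the log2 scale.

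A smaller group rose after PI in naive cells. Mrpl9, the relative of a bacterial protein that reaches out from the large subunit, had 467, 474 and 446 normalized counts in N0 and 1254, 1089 and 1181 in NPI. It rose by 1.35 ± 0.10 on the log2 scale (edgeR adjusted p = 1.27e-11), with no overlap. Mrps18b went from 210, 220 and 220 to 423, 498 and 413 normalized counts, a 2.05-fold rise. Mrpl32, whose precursor is cut by a mitochondrial protease before assembly, went from 97.1, 114 and 92.2 to 223, 232 and 227, a 2.25-fold rise. NPI replicates lay above N0 in each. Mrps30 (0.94), which despite its name sits in the large subunit, and Mrps7 (0.92), near the mRNA exit, were the next. Mrps7 shares 127 exonic bases with Gga3 on the other strand, which was at -0.29 in this comparison.

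PI, given in culture, also lowered most members in tolerized cells. T0 cells were not cultured, so culture and PI cannot be told apart in this comparison. Of the members 13 rose, where 32% of all tested genes did, and 45 fell, where 36.3% did. The medians were -0.55 over members and -0.10 over all genes. TPI replicates lay wholly below T0 for 44 members (38.8% of genes) and wholly above for 13 (33.7%). A change past the 2-fold limit was called downward in 21 (13.7% of genes) and upward in 6 (13.3%). Without T0 replicate 3, the only library of this pair of groups with few Y-linked reads (7), 13 rose and 44 fell. The summed neutrophil genes went from 185 CPM in T0 to 41.8 in TPI, but Mpo stood at 384 and 388 normalized counts. Elane stood at 65.7 and 52.1 and Prtn3 at 83.0 and 63.7. The summed T cell markers went from 1758 to 3528 CPM, with Cd28 at 4032 and 26034 normalized counts. Cd3d, Cd3g and Cd4 were lower in TPI than in T0, and Cd3e and Lck higher. With the myeloid and erythroid marker scores as covariates 8 members rose and 33 fell. With library totals alone, 5 rose and 65 fell, with medians of -1.35 for members and -0.92 for all genes. Of all tested genes, 15.5% rose and 59.7% fell with that scaling.

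Mrpl34 was again the lowest, with 93.8, 64.5 and 114 normalized counts in T0 and 9.69, 16.5 and 8.71 in TPI, a fall of 3.00 ± 0.28 on the log2 scale. Mrps31, specific to the mitochondrial small subunit, had 120, 131 and 104 in T0 and 29.9, 16.5 and 24.7 in TPI, a fall of 2.29 ± 0.19. Neither gene's groups overlapped, and both drops exceeded the spread of their replicates many times. Mrpl49 (-1.97), Mrps35 (-1.90) and Mrpl42 (-1.80) followed. Among the members that rose, Mrpl17 had 149, 159 and 176 normalized counts in T0 and 507, 477 and 476 in TPI, a 3.02-fold rise. Mrps18b had 160, 185 and 191 in T0 and 555, 521 and 536 in TPI, a 3.01-fold rise. The replicates of both were wholly separate. Mrps6 (1.46, uncertain as above, with Slc5a3 at 2.74), Mrpl54 (1.20) and Mrps7 (1.15) were the next. Across the members the PI responses of naive and tolerized cells, which share no library, had a Pearson r of 0.88 and a Spearman rho of 0.88.

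**Figure D3:**
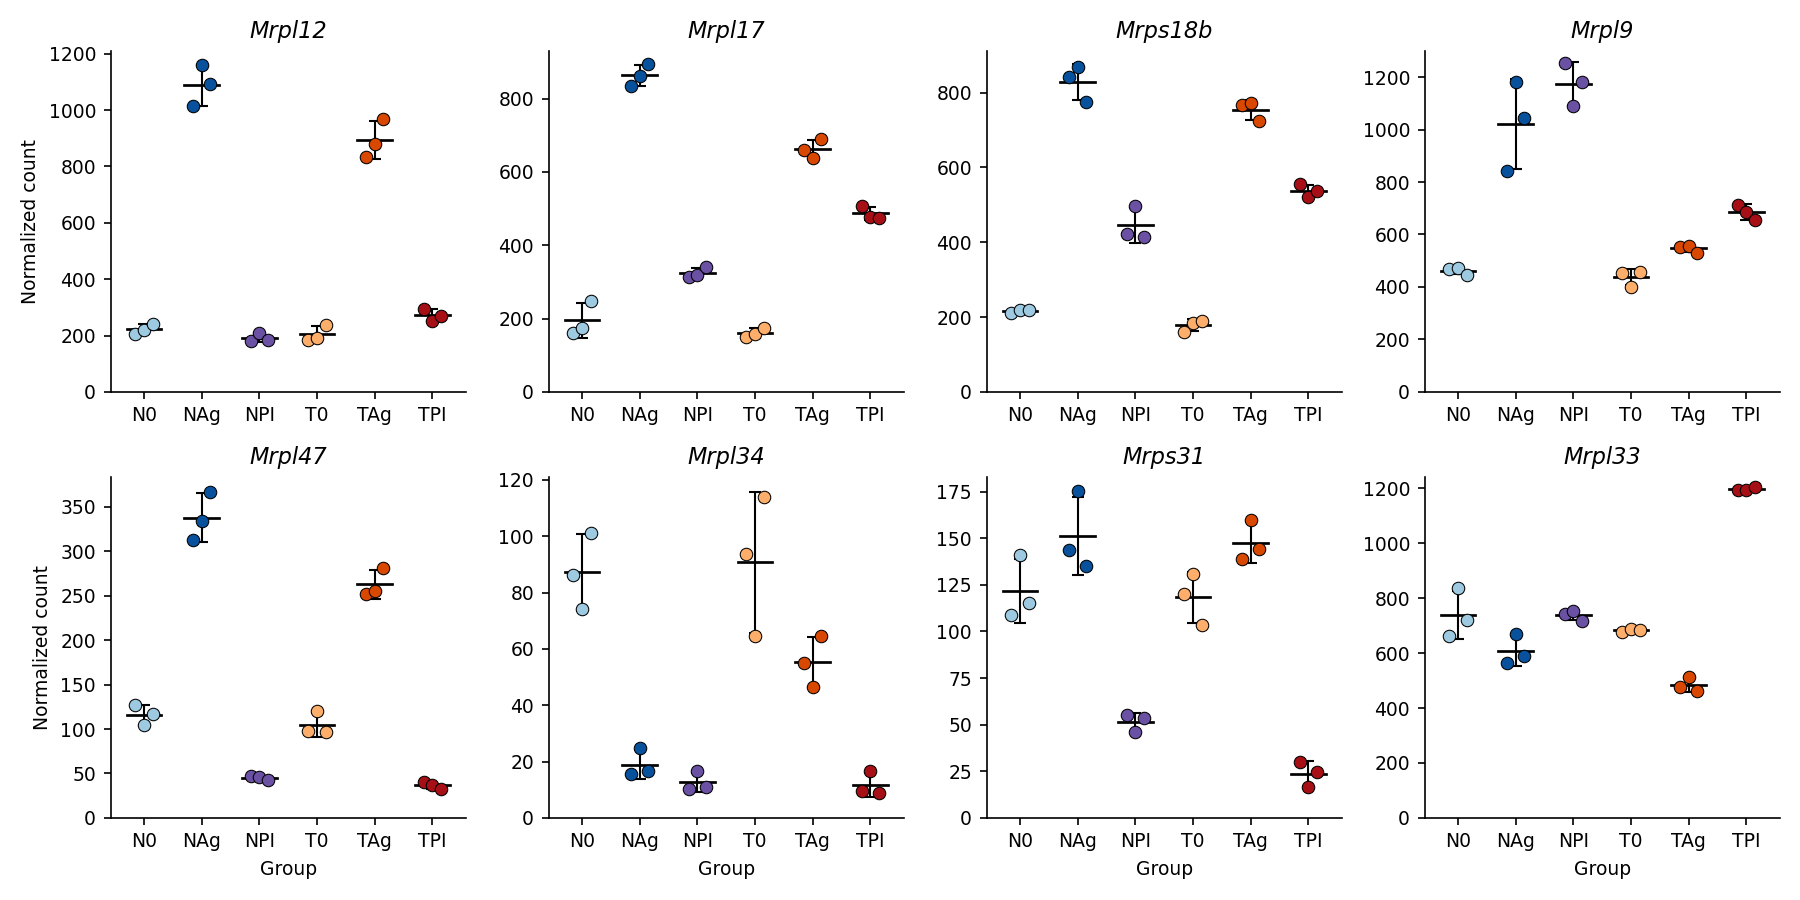
Normalized counts (vertical axis, each from 0) per library in the 6 groups for 8 members, with lines for means and bars for SD (n = 3). Mrpl12 is high in the antigen groups, with 832 to 1160 normalized counts, Mrpl17 and Mrps18b rise under both stimuli, Mrpl9 is highest in NPI, Mrpl34, Mrpl47 and Mrps31 are low after PI, and Mrpl33 is highest in TPI, at 1194 to 1205.

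Compared directly, most members were lower after PI than after antigen in both cell states. This contrast was added after the data had been seen. PI was given in culture and antigen in the mouse, so culture and stimulus cannot be told apart here. NAg and NPI were also of different sex, and TAg was of mixed sex where TPI was of 1. The summed T cell markers stood at 934 CPM in NAg and 3495 in NPI, and at 1314 in TAg and 3528 in TPI. Among them, only Cd3g was lower in TPI than in TAg. The part of these markers was not tested. In naive cells 66 members were lower after PI than after antigen, where 31% of all tested genes were, and 3 were higher, where 33.5% were. The median was -1.13 over members and 0.08 over all genes. At the 2-fold limit 44 members were lower (13.1% of genes), and 14.3% of genes were higher. Replicates of NPI lay wholly below NAg for 67 members (32.7% of genes) and wholly above for 3 (35.8%). In tolerized cells 68 were lower, where 32.3% of genes were, and 2 were higher, where 31.5% were, with a median of -1.31 against 0.01. At the 2-fold limit 50 were lower (13.1% of genes) and 1 higher (12.4%), and replicates lay wholly below for 68 (34.2% of genes) and wholly above for 2 (34.5%). Among members without shared exonic bases, 44 of 50 were lower in naive and 45 of 50 in tolerized cells. Under library totals alone 67 and 72 members were lower, where 35.1% and 45.2% of all tested genes were.

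Mrpl47 was the extreme in naive cells, with 313, 334 and 367 normalized counts in NAg against 46.8, 46.2 and 42.4 in NPI, a log2 difference of -2.90 ± 0.14. It was close to this in tolerized cells, with 252, 255 and 282 in TAg against 40.4, 37.3 and 32.7 in TPI. The unstimulated levels, 96.9 to 127, lay between the stimuli in both cell states. Mrpl47 shares 447 exonic bases on the other strand with Actl6a, which had 1.22 and -0.49 after antigen and PI in naive cells. Mrps27, specific to the mitochondrial small subunit, had the lowest value in tolerized cells, -2.84 ± 0.11, with 410, 445 and 465 normalized counts in TAg and 65.4, 59.3 and 58.8 in TPI. It shares 417 exonic bases on the other strand with 6430562O15Rik. Mrps2 was at -2.73 in naive and -2.42 in tolerized cells, and Mrps10 at -2.56 and -1.99. The members higher after PI than after antigen were Mrpl4 (0.65), Mrps16 (0.50) and Mrpl33 (0.28) in naive cells, and Mrpl33 (1.31) and Mrpl9 (0.32) in tolerized cells. The Mrps16 call was lost without NPI replicate 1, which left 2 members higher in naive cells. With library totals alone, Mrps16 and Mrpl33 lost their calls in naive cells and Mrpl9 in tolerized cells turned to -0.15.

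**Figure D4:**
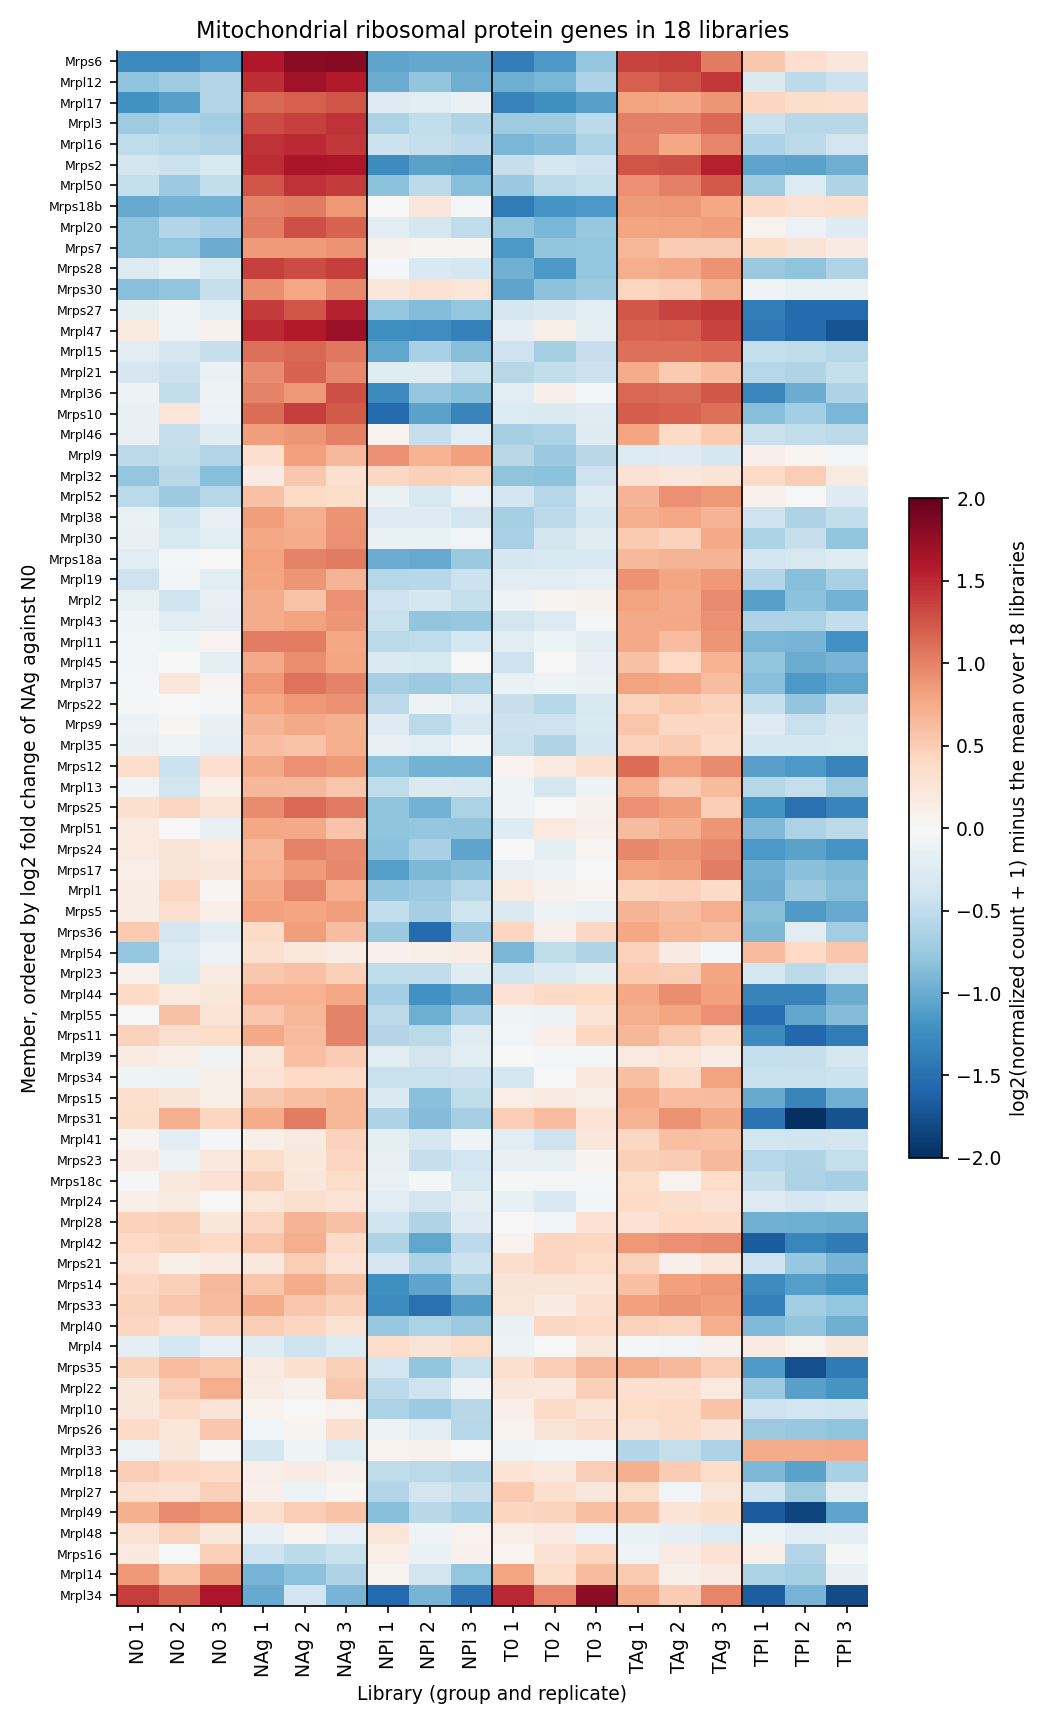
Each of the 75 members (rows, ordered by the log2 fold change of NAg against N0) in each of the 18 libraries (columns), as log2(normalized count + 1) minus the member's mean, on a color scale from -2 to 2. The NAg and TAg columns are red in most rows, the PI columns are blue in most rows, and Mrpl34 and Mrpl14, in the bottom rows, are low in NAg.

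Before stimulation, few members passed the test between the cell states. In T0 against N0, 1 member was higher, where 8.42% of all tested genes were, and 9 were lower, where 12% were, with medians of -0.15 for members and -0.08 for all genes. Replicates of T0 lay wholly above N0 for 3 members (13.1% of genes) and wholly below for 21 (21.8%). The 2-fold limit was passed by 2.61% of genes upward and 0.644% downward, and every member called changed by less than that. Mrps28, a small-subunit protein listed here among those with bacterial relatives, had 72.3, 79.3 and 69.4 normalized counts in N0 and 44.2, 38.9 and 50.8 in T0. It fell by 0.72 ± 0.15 on the log2 scale. Its groups did not overlap. Mrps22 (-0.43), Mrps5 (-0.38), Mrps25 (-0.34) and Mrpl35 (-0.31) were the other largest falls. Mrps25 shares 3533 exonic bases with Nr2c2 on the other strand, which had a mean of 2506 counts against 306 for Mrps25. The part of those reads was not tested. The call of Mrps22 was lost when N0 replicate 2 or 3 or T0 replicate 1 or 2 was left out, and those of Mrps25 and Mrpl35 without N0 replicate 2 or T0 replicate 1 or 2. The higher member was Mrpl4, at 0.28 ± 0.10 (edgeR adjusted p = 0.0464), with 242, 217 and 246 against 258, 277 and 323. Its call was lost when any 1 of 5 of the 6 libraries was left out, and the lower members numbered 3 without T0 replicate 1 or T0 replicate 2, 4 without N0 replicate 2 and 14 without N0 replicate 1. With sex as a covariate, 2 members were lower. T0 had more neutrophil, erythroid and cell-cycle reads than N0. Neutrophil sums ran from 4.36 to 12.1 CPM in N0 and from 121 to 219 in T0. A fit with the myeloid score therefore cannot cleanly separate these reads from cell state. With myeloid and erythroid scores as covariates no member kept an adjusted call, and Mrps25 was at 0.042. At an unadjusted edgeR p under 0.05 that fit had 2 members higher and 1 lower, where the fit without covariates had 1 higher and 21 lower and DESeq2 without covariates called 1 and 7 after adjustment. The part of the cell-cycle genes was not tested.

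After antigen, 7 members were higher in tolerized than in naive cells, where 20.9% of tested genes were, and 20 were lower, where 18.5% were, with a median of -0.06. This split turned to 18 higher and 4 lower with library totals alone, which moved the median of all genes to 0.20. With that scaling 30.8% of all tested genes were higher and 10.3% lower. Leaving out NAg replicate 2 gave 12 lower. NAg libraries were all of 1 sex and TAg was of mixed sex. At the 2-fold limit 2 members were higher (3.61% of genes), and 2.05% of genes were lower. Replicates of TAg lay wholly above NAg for 12 members (24.8% of genes) and wholly below for 26 (22.9%). Mrpl34 (1.55), Mrpl14 (1.08) and Mrps16 (0.61) were higher and Mrpl9 (-0.90), Mrps28 (-0.56) and Mrpl16 (-0.53) lower. After PI, 9 members were higher in tolerized cells, where 18.2% of genes were, and 21 lower, where 19.7% were, with a median of -0.19. Library totals alone gave 6 higher and 34 lower, where 14.2% and 26.6% of all tested genes were. At the 2-fold limit 1 member was higher (3.38% of genes) and 1 lower (2.22%), and replicates of TPI lay wholly above NPI for 11 members (24.1% of genes) and wholly below for 34 (26.4%). Mrps6 was at 1.42, with Slc5a3 at 1.67, Mrpl33 at 0.70 and Mrps18a at 0.59, whereas Mrps31 was at -1.10, Mrps11 at -0.97 and Mrps35 at -0.88. With the myeloid and erythroid scores as covariates, 4 members were higher and 2 lower after antigen, and 5 higher and 2 lower after PI. Neutrophil sums ran from 9.37 to 22.5 CPM in NAg and from 148 to 260 in TAg. They ran from 5.18 to 13.7 in NPI and from 32.5 to 55.3 in TPI, so these fits cannot cleanly separate them from cell state.

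The difference between the responses was tested as an interaction, the tolerized log2 fold change minus the naive one. Sex was not balanced in the antigen interaction, since N0 and NAg were of 1 sex and T0 and TAg were mixed. For antigen, 5 members had a higher value in tolerized cells, where 14.6% of tested genes did, and 3 a lower one, where 7.09% did. Library totals alone gave 9 higher and 3 lower, where 18.9% and 5.93% of all tested genes were. The myeloid and erythroid scores as covariates gave 2 higher. Mrpl9 had 841, 1181 and 1044 normalized counts in NAg and 553, 557 and 531 in TAg, from similar unstimulated levels of 446 to 474 in N0 and 401 to 457 in T0. All TAg libraries were below all NAg libraries, and the rise of 1.14 in naive cells compared with 0.32 in tolerized cells, an interaction of -0.82 ± 0.14 (edgeR adjusted p = 9.66e-05). Mrpl34, the member that fell most, fell by 2.20 in naive and 0.71 in tolerized cells, an interaction of 1.49 ± 0.36. The count of members with a higher value was 3 without T0 replicate 2 or TAg replicate 1 and 8 without T0 replicate 3, and that with a lower value was 1 without T0 replicate 3. For PI, 9 members had a higher value in tolerized cells, where 12.7% of genes did, and 9 a lower one, where 7.52% did. Library totals alone gave 7 higher and 20 lower, where 7.18% and 18.7% of all tested genes were. With the main scaling, 5 members were lower without NPI replicate 3 or T0 replicate 3.

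Mrpl33 had the lowest adjusted p of the members in the PI interaction. It had 744, 753 and 717 normalized counts in NPI, within the range of N0, 664 to 836, and 1194, 1195 and 1205 in TPI, far above T0, 678 to 687. Its log2 fold changes were 0.00 and 0.81, an interaction of 0.81 ± 0.11 (edgeR adjusted p = 1.35e-05). Mrpl17 rose in both states but more in tolerized cells, 0.73 against 1.60, and Mrps18a went from -0.84 to 0.01. In the other direction, Mrps31 fell by 1.23 in naive and by 2.29 in tolerized cells, an interaction of -1.06 ± 0.26. Its NPI libraries held 46.2 to 55.1 normalized counts and its TPI libraries 16.5 to 29.9, with no overlap. Mrpl9 again had the smaller rise in tolerized cells, 0.65 against 1.35.

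**Figure D5:**
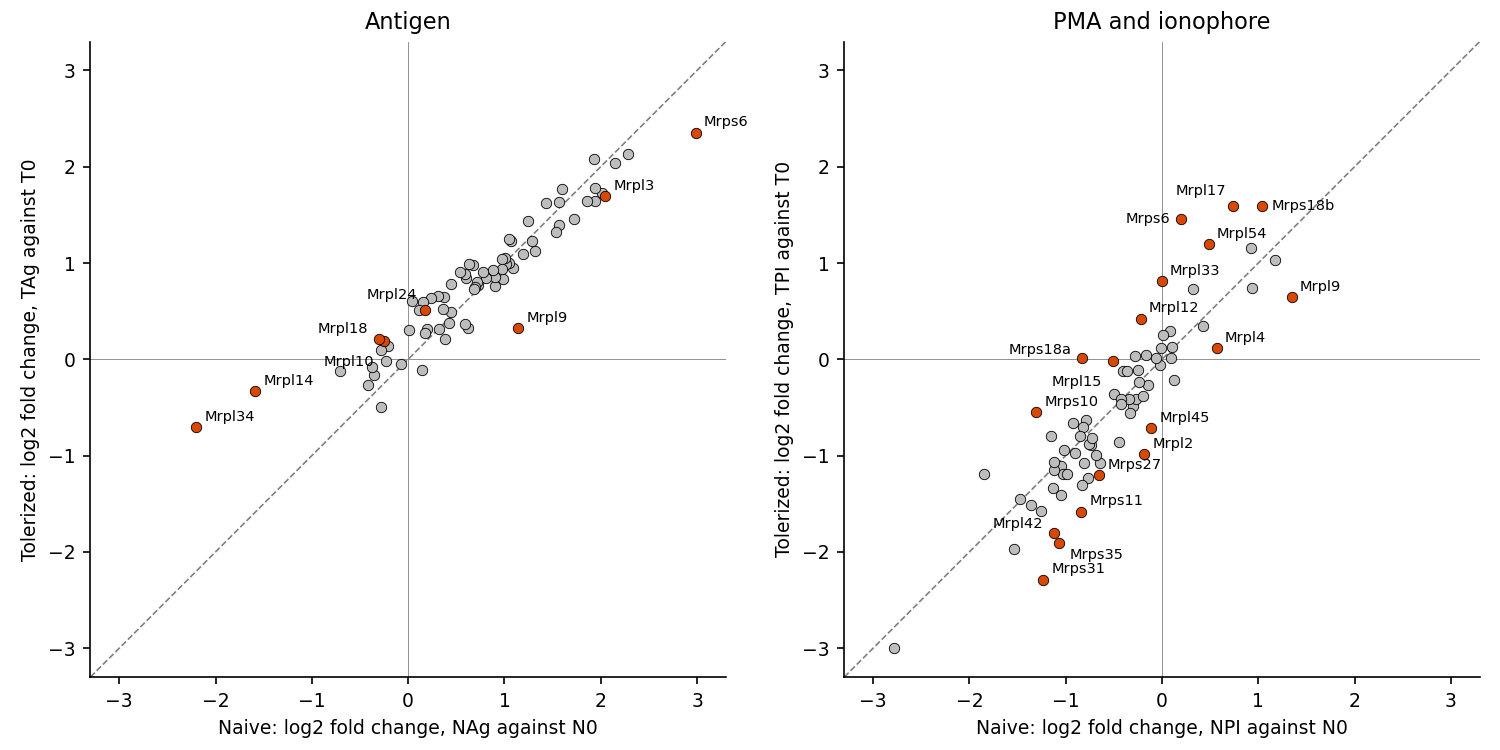
Log2 fold change of each of the 75 members in naive cells (horizontal axis) and tolerized cells (vertical axis) after antigen (left) and after PMA and ionophore (right), with a dashed line of equal change. Orange points are the 8 members (left) and 18 members (right) whose response differed by the interaction test. Most points lie near the line, Mrpl34, Mrpl14 and Mrpl9 stand off it on the left, and Mrps6, Mrpl33 and Mrps31 on the right.

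By place in the ribosome, members of one structure did not always move together. In the stalk, Mrpl12 rose by 2.28 and Mrpl11 by 0.97 in naive cells after antigen, whereas Mrpl10, to which Mrpl12 attaches, fell by 0.25 ± 0.09. Mrpl10 was at 356, 395 and 364 normalized counts in N0 and 318, 304 and 317 in NAg. Its groups did not overlap, and in tolerized cells its value was 0.19 without a call. Around the polypeptide exit, all 4 genes rose in naive cells, Mrpl45 by 0.91, Mrpl23 by 0.54, Mrpl44 by 0.45 and Mrpl24 by 0.18. Mrpl45 is known to hold the ribosome to the inner membrane. After PI in tolerized cells, Mrpl44 and Mrpl45 fell by 1.58 and 0.72, and Mrpl23 and Mrpl24 had -0.12 each without a call. Mrpl24 shares 594 and Mrpl44 shares 126 exonic bases with a gene on the other strand. On the decoding side, Mrps7 (1.73), Mrps9 (0.80), which reaches the tRNA, and Mrps12 (0.73), of the decoding center, all rose in naive cells after antigen. After PI in naive cells Mrps7 rose by 0.92, whereas Mrps9 fell by 0.28 and Mrps12 by 1.05.

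The 3 Mrps18 paralogs diverged. Mrps18b rose in all 4 responses, by 1.93 and 2.08 after antigen and 1.04 and 1.59 after PI in naive and tolerized cells. Mrps18a, which sits in the large subunit, rose by 1.02 and 0.99 after antigen, fell by 0.84 after PI in naive cells and was at 0.01 in tolerized cells. Mrps18c, the paralog placed like the bacterial protein, was at 0.20 without a call and rose by 0.31 after antigen, and fell by 0.33 and 0.56 after PI. Mrps18b shares 638 exonic bases with the non-member Gm16279 on the other strand, which had a mean of 18.3 counts against 482 for Mrps18b. Mrps36, the dehydrogenase component, rose by 0.59 after antigen in naive cells and fell by 1.01 and 0.94 after PI.

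Other genes of mitochondrial gene expression were taken from fixed lists, and their counts stand beside 32.1% of all tested genes higher and 33.4% lower in this comparison. Among 7 further ribosomal subunits with other names, 4 rose and 2 fell in naive cells after antigen. Ptcd3, at the mRNA entry, Chchd1 and Gadd45gip1 rose by 1.75, 1.18 and 1.13. Ict1, a release enzyme built into the large subunit, fell by 1.74, and Dap3, a GTP-binding protein of the small subunit, by 0.45. Of the translation factors 5 of 14 rose, a share near that of all genes, and 8 fell. The elongation factors Gfm1 (1.56) and Tufm (0.97) and the recycling factor Mrrf (1.08) rose, and the release factor Mtrf1 (-1.49), the initiation factor Mtif3 (-1.20) and Guf1 (-1.12) fell. Of 22 assembly and rRNA factors 11 rose and 6 fell, with Wbscr16 (2.33), the rRNA methyltransferase Rnmtl1 (2.11) and Fastkd2 (1.95) highest and the rRNA methyltransferase Ftsj2 (-2.81), Mettl15 (-1.45) and Mettl17 (-0.92) lowest. Of 17 mitochondrial tRNA synthetases 6 rose, led by Yars2 (2.34), Mars2 (0.98) and Aars2 (0.77), and 9 fell, among them Cars2 (-2.62) and Fars2 (-0.94). All 4 mitochondrial transcription genes rose, with Lrpprc (2.15), an RNA-binding stabilizer of mitochondrial mRNA, Tfb2m (1.03) and Polrmt (0.25) the highest. By library totals alone, 3 of the 7 subunits rose and 2 fell, as did 3 and 8 translation factors, 6 and 10 assembly factors, 4 and 11 synthetases and 2 and 1 transcription genes. With that scaling 22.8% of all tested genes rose and 43.1% fell.

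After PI in tolerized cells, where 32% of all tested genes were higher and 36.3% lower, most genes of 4 of these 5 lists fell. Of 14 translation factors 12 fell and 2 rose, of 22 assembly factors 15 fell and 3 rose, and of 17 synthetases 12 fell and 2 rose. Mtrf1 (-2.46), Guf1 (-2.16) and Tsfm (-2.10) were the lowest translation factors, and Tufm (0.30) and Mrrf (0.46) were those that rose. Ftsj2 (-3.07), the pseudouridine synthase Trub2 (-2.22) and the GTPase Mtg1 (-1.91) were the lowest assembly factors, while Ddx28 (0.97), Wbscr16 (0.67) and Rpusd4 (0.23) rose. Pars2 (-2.34) and Rars2 (-2.23) were the lowest synthetases, and Sars2 (0.82) and Yars2 (0.65) rose. Of the transcription genes, Polrmt (-1.07), Tfam (-0.64) and Lrpprc (-0.37) fell. Of the 7 further subunits, Chchd1 (0.47) and Ptcd3 (0.33) rose, and Ict1 (-1.68), Mrp63 (-0.51) and Aurkaip1 (-0.38) fell. Under library totals alone all 7 subunits, all 14 translation factors, 20 assembly factors, 15 synthetases and all 4 transcription genes fell. With that scaling 59.7% of all tested genes fell and 15.5% rose, so the rises after PI depend on the scaling. In naive cells after PI, where 32.7% of all genes fell, 4 of those 7 fell, as did 11 of 14 translation factors, 16 of 22 assembly factors, 11 of 17 synthetases and 3 of 4 transcription genes. After antigen in tolerized cells, where 29.9% of all genes rose and 29.8% fell, 5 of the 7 subunits rose and 2 fell, 5 of 14 translation factors rose and 4 fell, 14 of 22 assembly factors rose and 3 fell, and 9 of 17 synthetases rose and 5 fell. All 4 transcription genes rose. Library totals alone gave 4 and 2, 4 and 8, 10 and 6, 5 and 7, and 4 higher in the same order. With that scaling 21.8% of all tested genes rose and 40.8% fell.

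The mRNAs that these ribosomes translate were highest after PI. The PI groups were also cultured, and all their libraries were of the sex opposite to N0 and NAg. Culture and, in naive cells, sex cannot be told apart from PI here. The 13 mitochondrial-genome mRNAs, of which 12 could be tested, summed to 6614, 7083 and 6889 CPM in N0, 9269, 8895 and 8538 in NAg and 26680, 30517 and 26099 in NPI. NPI was the highest, without overlap. By library totals alone, N0 ran from 8223 to 8614 CPM and NAg from 7821 to 8850, which overlap, and NPI from 21129 to 25451. In tolerized cells the sums were 6061, 6746 and 6785 CPM in T0, 7001, 7038 and 8119 in TAg and 17227, 17163 and 15899 in TPI. All 12 rose after PI in both cell states, with medians of 2.67 and 1.65, and all 12 rose after antigen in naive cells, with a median of 0.54. Of all tested genes 28.6% and 32% rose after PI in naive and tolerized cells, and 32.1% after antigen in naive cells. By library totals alone all 12 still rose after PI in both states, with a median of 0.84 in tolerized cells, but 2 rose after antigen in naive cells, with a median of 0.14. With that scaling the shares of all tested genes were 15.6% and 15.5% after PI in naive and tolerized cells, and 22.8% after antigen. In tolerized cells 5 of 12 rose after antigen, where 29.9% of all tested genes did, and by library totals alone 3 fell, where 40.8% did. mt-Atp8 (4.78), mt-Atp6 (3.00) and mt-Nd6 (2.69) had the largest rises in TPI against T0, and mt-Nd1 (0.87), mt-Atp8 (0.86) and mt-Nd2 (0.72) in NAg against N0. For PI the rise of all 12 was smaller in tolerized than in naive cells by the interaction test, with a median of -0.89, and of -1.12 by library totals alone. A lower value was called for 7.52% of all tested genes in that test, and for 18.7% by library totals alone. The 2 ribosomal RNAs had been depleted in library preparation and are not described further.

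Within the members, responses were laid beside the promoter motifs, as a description. The 12 members with the NRF1 motif had a median of 0.86 after antigen in naive cells, with 9 higher and 2 lower, and the 54 without it 0.65, with 35 higher and 7 lower. After PI in naive cells these medians were -0.25 and -0.75. Members with the ETS motif had a median of 0.46 after antigen in naive cells and those without it 0.68. For the other 3 motifs the medians with and without were 0.90 and 0.60 for YY1 and 0.60 and 0.97 for SP1. For the E-box, in 5 members, they were 0.99 and 0.63. The order for NRF1 turned in tolerized cells after antigen, 0.62 with and 0.81 without the motif. A neighbor transcribed in the opposite direction from within 1000 bases was found for 16 of 75 members (21.3%), against 10.3% of 13856 tested protein-coding genes. Examples are Mrps18c and Helq at 27 bases, Mrps18b and Ppp1r10 at 45 bases and Mrps12 and the synthetase gene Sars2 at 171 bases.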

How the data were processed

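The deposited values were whole read counts per gene in 1 file per library, made by the authors by aligning paired-end reads of rRNA-depleted RNA to mm9 (build 37) with TopHat2 2.1.1 and counting with HTSeq 0.9.1. The counting mode and strand setting are not given in the sources used here. Symbols, lengths and overlaps came from GENCODE annotation of the same build, which matched 37205 of 37991 gene IDs. Normalized counts are counts scaled by trimmed mean of M values (TMM) to a common library size, and CPM uses the same scaling.

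A gene entered the tests where the mean of its normalized counts reached 3 in any group, and the tests used edgeR 4.0.16 (R 4.3.3, robust quasi-likelihood F test, all 18 libraries, 6 groups, Benjamini-Hochberg over all tested genes, call at adjusted p under 0.05). SE is the log2 fold change divided by the root of F. Interactions are tolerized minus naive log2 fold changes. Fits were tested on simulated counts before use. The authors' own tests used DESeq2 1.18 and edgeR 3.24 with a 2-fold limit. Alternatives were DESeq2 1.42.0, other scalings, filters and limits, groups fitted apart, covariates, a replicate block and each library left out. No 2 libraries of a group agreed within sampling noise. Nothing says more of the replicates than that they are biological, so p-values measure the spread between these samples. Same-numbered libraries did not deviate together: of 45 pairs, 7 had a correlation over 0.1 (median -0.017).

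The members and lists were chosen with earlier results of these data known. Named members are, per comparison, up to 5 with the largest rise and fall among those called without overlap of replicates (3 per interaction), fixed structural sets, the 3 highest and lowest per length, and from each other list up to 3 each way in NAg against N0 and TPI against T0. A gene that this rule would name is not reported here. Mrpl39 falls outside that rule and was named after its values were seen. Mean and SD are over 3 libraries.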

Additional observations from a re-analysis of the deposited data

Results flagged for a closer look

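The antigen response differed between naive and tolerized cells for 8 members by edgeR's interaction test (adjusted p under 0.05, tolerized minus naive log2 fold change). It was higher in tolerized cells for Mrpl34 (1.49), Mrpl14 (1.26), Mrpl18 (0.51), Mrpl10 (0.43) and Mrpl24 (0.34), all genes at 0.18 or below in naive cells, and lower for Mrpl9 (-0.82), Mrps6 (-0.63) and Mrpl3 (-0.36). Of the 5 higher ones, 4 share exonic bases with another gene, as does Mrps6, and among members that share none the test called 1 higher and 2 lower. Without T0 replicate 3 the calls of Mrps6 (-0.43) and Mrpl3 (-0.27) were lost, and that of Mrpl18 was lost without any 1 of N0 replicate 1, NAg replicate 3, T0 replicates 1 and 2 and TAg replicate 1 (0.40 to 0.50). Y-linked reads were few in all N0 and NAg libraries and abundant in T0 replicates 1 and 2 and TAg replicate 3. Sex was therefore not balanced in this test.

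The PI response differed for 18 members. It was higher in tolerized cells for Mrps6 (1.27), Mrpl17 (0.86), Mrps18a (0.84), Mrpl33 (0.81), Mrps10 (0.76), Mrpl54 (0.71), Mrpl12 (0.64), Mrps18b (0.55) and Mrpl15 (0.49). It was lower for Mrps31 (-1.06), Mrps35 (-0.83), Mrpl2 (-0.80), Mrps11 (-0.74), Mrpl9 (-0.70), Mrpl42 (-0.67), Mrpl45 (-0.60), Mrps27 (-0.55) and Mrpl4 (-0.45). Y-linked reads numbered 15 or fewer in the N0 libraries and in T0 replicate 3 and 5599 or more in the other T0 and all PI libraries, and with sex as a covariate 8 members were higher and 7 lower.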

How the results depend on the processing

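The 4 responses and the direct PI with antigen comparisons kept their main direction under every alternative run, and counts of members moved as follows (higher and lower). Library totals alone gave 16 lower for NAg, 9 lower for TAg, 5 higher for NPI and for TPI, 2 lower for T0 against N0, 18 and 4 for TAg against NAg, 34 lower for TPI against NPI, 1 higher for PI against antigen in each cell state, 9 higher for the antigen interaction and 20 lower for the PI interaction. With that scaling 5.36% of all tested genes were lower for T0 against N0. For PI against antigen 28.9% were higher in naive and 19.4% in tolerized cells, and the other shares are given above. A limit of 2-fold with a mean above 50 gave 26 and 2 for NAg, 23 and 0 for TAg, 3 and 17 for NPI, 6 and 21 for TPI, 0 and 0 for T0, 2 and 0 for TAg against NAg, 1 and 1 for TPI against NPI, 0 and 1 higher for PI against antigen in naive and tolerized cells, 2 and 0 for the antigen interaction and 1 and 1 for the PI interaction. DESeq2, its size factors in edgeR and calls by both tools each gave 5 lower for NAg. With no filter on counts T0 had 0 higher, and fitted on its own 2 groups it had 2 lower. Myeloid and erythroid scores as covariates gave 3 lower for NAg, 8 higher for TPI, 0 and 0 for T0, 4 and 2 for TAg against NAg, 5 and 2 for TPI against NPI, 1 higher for PI against antigen in each state and 2 higher for the antigen interaction. Neutrophil genes, part of the myeloid score, did not overlap in sum between naive and tolerized libraries. The fits between cell states thus cannot cleanly separate them from cell state. Sex as a covariate gave 0 and 2 for T0. Members without shared exonic bases had 2 lower for NAg and 1 higher for the antigen interaction. Mrpl9 in TPI against TAg turned to -0.15 with library totals and -0.061 with the marker scores, and Mrps25 in T0 against N0 turned to 0.042 with those scores. At an unadjusted edgeR p under 0.05, T0 against N0 had 1 higher and 19 lower without the filter, 2 and 1 with the marker scores and 2 and 10 with sex, and DESeq2 called 1 and 7 after adjustment. For these changes the cause was not tested, other than that a stricter limit keeps fewer genes.

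Leaving out each library gave 0 to 1 higher and 3 to 14 lower for T0 against N0, 12 to 21 lower for TAg against NAg, 1 to 3 lower for TAg, 3 to 8 higher and 1 to 3 lower for the antigen interaction and 5 to 10 lower for the PI interaction. With the replicate number as a block, counts were 52 and 8 for NAg, 55 and 3 for TAg, 10 and 46 for NPI, 13 and 45 for TPI, 1 and 9 for T0, 7 and 20 for TAg against NAg, 9 and 21 for TPI against NPI, 3 and 66 and 2 and 68 for PI against antigen, 7 and 3 for the antigen and 9 and 9 for the PI interaction, and the block changed no named member's call. Same-numbered libraries share only a number. Depth limits the least abundant members, Mrpl34, Mrpl14 and Mrps36, with mean counts below 50.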
